A study of Mus musculus with 8 samples.

Results

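The 9 genes of the AMPA and kainate classes of ionotropic glutamate receptor, Gria1 to Gria4 and Grik1 to Grik5, were examined in adult mouse hippocampus. They were taken by gene symbol from a table of 54532 genes, and all 9 were present and expressed above the minimum for testing. RNA sequencing had been made from hippocampal tissue in 8 libraries, 4 from wild-type mice (WT) and 4 from mice heterozygous for a Kat6a allele (Kat6a+/-), the gene of a histone acetyltransferase. Both groups are labelled as adult hippocampus. The nature of the allele, the age beyond adult, the sex, the litter and whether each library came from a separate animal are unstated in the labels, so the p-values reflect only how these libraries scatter, technical scatter included. The title of the study concerns cognition and RSPO2/Wnt signalling in the CA3 field.

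AMPA receptors carry most fast excitatory transmission in the hippocampus and are assembled as tetramers of the products of Gria1 to Gria4. The Gria2 product keeps the channel nearly impermeable to calcium because ADAR enzymes edit 1 codon of its pore loop, the Q/R codon, so the balance of Gria2 with the other subunits sets a basic property of the receptor. Kainate receptors are tetramers of the products of Grik1, Grik2 and Grik3 with the high-affinity subunits of Grik4 and Grik5, which do not form working channels alone, and they act at the mossy fibre synapse between dentate granule cells and CA3 pyramidal cells and on interneurons.

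The 9 genes share the pore loop, and the coding stretch around the Q/R codon shows how the classes relate to each other. Each stretch of 45 bases is the reference sequence of a coding transcript in GENCODE M21 (GRCm38), read 5′ to 3′ on the coding strand, with the Q/R codon in capitals.
Gria1: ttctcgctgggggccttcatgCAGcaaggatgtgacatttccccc
Gria2: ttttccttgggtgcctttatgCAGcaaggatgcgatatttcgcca
Gria3: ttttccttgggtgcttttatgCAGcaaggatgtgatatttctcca
Gria4: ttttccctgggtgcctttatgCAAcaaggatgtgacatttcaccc
Grik1: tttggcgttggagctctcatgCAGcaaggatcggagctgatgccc
Grik2: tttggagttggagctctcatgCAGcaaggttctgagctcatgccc
Grik3: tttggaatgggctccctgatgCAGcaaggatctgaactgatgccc
Grik4: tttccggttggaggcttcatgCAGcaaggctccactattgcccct
Grik5: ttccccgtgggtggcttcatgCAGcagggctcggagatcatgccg
The reference codon is CAG in every gene except Gria4, which has CAA, the other glutamine codon. The Gria3 stretch differs from that of Gria2 at 3 of 45 bases, Gria4 at 6 and Gria1 at 9, while the kainate genes differ from Gria2 at 14 (Grik4 and Grik5) to 18 (Grik2). The Q/R codon of Gria2 lies on the minus strand of chromosome 3 at 80706911 to 80706913, in exon 11, that of Grik1 on chromosome 16 at 87940542 to 87940544 in exon 13, and that of Grik2 on chromosome 10 at 49244329 to 49244331 in exon 12. Grik1, Grik2 and Grik3 have an exon junction inside the stretch, 4 bases after the codon. Editing itself was not measured, because the deposited values are totals per gene.

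Levels are given as FPKM, fragments per kilobase of gene length on the authors' library scale, which follows 1 size factor per library. Library totals ran from 16462428 to 27875310 reads. Markers of neurons, of the CA1 and CA3 fields and of dentate granule cells were present in every library, as the tissue label requires. Kat6a measured 9.15 ± 0.498 FPKM in WT, beside 7.02 ± 0.683 FPKM in Kat6a+/- (mean ± SD, n = 4 each) without overlap. The nature of the allele is unstated, so this separation does not check the label of each library. WT replicate 1 stood apart in the receptor genes. It held the lowest value of the 8 libraries in 4 members (Gria1, Gria2, Gria3 and Grik4) and the highest in 3 (Gria4, Grik1 and Grik3). Over all tested genes it was the lowest library in 18.6% and the highest in 16.3%. The same library had the lowest summed level of 6 CA3 markers (73.0 FPKM against 85.5 to 103 in the others) and of 6 oligodendrocyte markers (525 against 611 to 803). It had the highest summed level of 6 astrocyte markers (557 against 461 to 517) and of 4 neocortex markers (18.9 against 12.6 to 14.1, with Cux2 at 4.46 FPKM against 2.17 to 2.51). Single markers did not all follow these sums. Bok made up most of the CA3 sum (41.6 FPKM in WT replicate 1), and Coch was highest there, at 1.60 FPKM. Aldoc was the largest part of the astrocyte sum, at 277 FPKM in WT replicate 1. Gfap, at 99.6 FPKM, lay within the range of the other libraries. Aqp4, at 34.7 FPKM, was higher in Kat6a+/- replicate 2 (35.8 FPKM). The part of these marker differences in the receptor values was not tested. Values without WT replicate 1 stand beside many of the results that it moves.

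None of the 9 genes passed the test for a difference between genotypes. Of the AMPA genes, Gria1, Gria2 and Gria3 measured 106%, 104% and 105% of their WT means and Gria4 87.6%. Of the kainate genes, Grik4 measured 105%, Grik1, Grik2 and Grik5 between 99.3% and 101%, and Grik3 86.8%. The groups overlapped in every member. With limma across 14159 genes, adjusted by Benjamini-Hochberg, 0 of the 9 members passed a threshold of 0.05 (adjusted p = 0.9998 for each), where 0% of all tested genes passed. Kat6a itself, at 76.7% of its WT mean and without overlap, did not pass either (unadjusted p = 0.000513, adjusted p = 0.9998 in limma). In the authors' deposited table the adjusted p of Kat6a is 0.0166. At an unadjusted p under 0.05 there were 0 members, against 4.41% of the tested genes (2.63% in the lower direction). DESeq2 on recovered reads called 5 of all genes (0.0353%) and 0 members. The members' median log2 fold change on the scale of log2(FPKM + 0.5) was 0.02, beside 0.00 over all tested genes. Of the members 6 were above 0 and 3 below, and of all tested genes 50.6% were above 0. How large a difference could have been missed varied from gene to gene. The 95% interval of the ratio to WT ran from 94.7% to 114% for Gria2 and from 91.9% to 109% for Grik5, and for Grik3 from 75.1% to 105%.

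**Figure D1:**
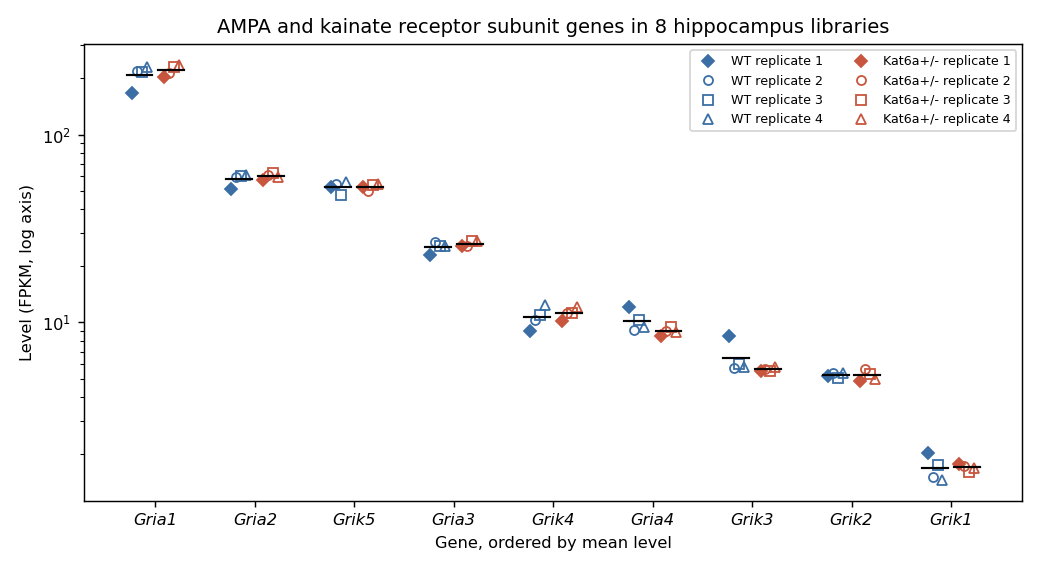
Level of each subunit gene in FPKM on a log axis, in order of mean level, with WT libraries in blue, Kat6a+/- libraries in red, 1 symbol per replicate number (filled diamonds for replicate 1) and a bar at each group's mean (n = 4). The genotypes overlap in every gene, and WT replicate 1 lies lowest in Gria1, Gria2, Gria3 and Grik4 and highest in Gria4, Grik1 and Grik3.

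Gria1, the AMPA subunit that reaches synapses during long-term potentiation, had the most transcript. Its values were 167, 219, 216 and 229 FPKM in WT replicates 1 to 4 and 203, 212, 230 and 236 FPKM in Kat6a+/- replicates 1 to 4. Apart from WT replicate 1, which was lowest, the libraries of both genotypes shared 1 range from 203 to 236 FPKM. The log2 fold change was 0.09 ± 0.10 (SE, 95% interval -0.12 to 0.31). Without WT replicate 1 it was -0.01, so the higher mean in the heterozygotes rested on that library.

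Gria2, whose edited product limits calcium entry, measured 51.5, 59.7, 60.2 and 61.2 FPKM in the WT libraries, against 57.4, 61.4, 62.4 and 59.5 FPKM in the heterozygous ones. The lowest value was again WT replicate 1, and the other 7 lay within 57.4 to 62.4 FPKM. The log2 fold change was 0.05 ± 0.06 (SE, 95% interval -0.08 to 0.18), and -0.00 without WT replicate 1. Gria3, on the X chromosome, which pairs with the Gria2 product in many hippocampal receptors, measured 22.8, 26.8, 25.4 and 25.6 FPKM in the WT libraries, against 25.5, 25.4, 27.2 and 27.2 FPKM in the heterozygous ones. Its log2 fold change was 0.07 ± 0.05 (SE), and 0.02 without WT replicate 1.

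Gria4, the AMPA subunit of interneurons and of the developing hippocampus, was the member with the smallest p. Its values were 12.1, 9.08, 10.3 and 9.45 FPKM in the WT libraries, against 8.48, 8.98, 9.48 and 8.89 FPKM in the heterozygous ones, from 945 to 1539 reads per library. The groups overlapped: Kat6a+/- replicate 3 lay above WT replicates 2 and 4. The means were 10.2 ± 1.32 FPKM and 8.96 ± 0.412 FPKM (SD, n = 4 each), and the log2 fold change was -0.17 ± 0.08 (SE, 95% interval -0.35 to 0.01). The unadjusted p was 0.0573 in limma across all genes, and the exact two-sided permutation p over 70 assignments was 0.0857. On whole reads recovered from the FPKM values the unadjusted p for Gria4 was 0.0222 in edgeR and 0.0246 in DESeq2, with an adjusted p of 0.9998 in edgeR and 0.9997 in DESeq2. With limma-voom the unadjusted p was 0.0264. An unadjusted p under 0.05 occurred in 4.35% of all genes in edgeR (2.54% lower in the heterozygotes), in 3.30% in DESeq2 (1.88% lower) and in 4.24% in limma-voom (2.39% lower), and Gria4 was the 1 member among them in each. Gria4 is the 1 member in the authors' deposited table of 605 genes, where its log2 fold change is -0.19 (adjusted p = 0.9998, both from the authors' deposited table). Leaving out WT replicate 1, the highest library, brought the limma log2 fold change to -0.10. The 9 interneuron markers all had a log2 fold change below 0, with a median at -0.14 and with 0 past the threshold. Averaged with equal weight, as log2 deviations from each marker's mean, they ran from 0.05 to 0.16 in WT. In Kat6a+/- this average ran from -0.16 to -0.06, without overlap. Their summed level, of which Sst with a mean of 234 FPKM made up most, overlapped. It ran from 403 to 470 FPKM in WT, while Kat6a+/- ran from 375 to 409 FPKM, and no marker was at 0. WT replicate 1, with the most Gria4, had the lowest of these sums within WT. The part of these markers in the Gria4 values was not tested, and in whole tissue fewer cells of a type and less RNA per cell cannot be told apart.

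**Figure D2:**
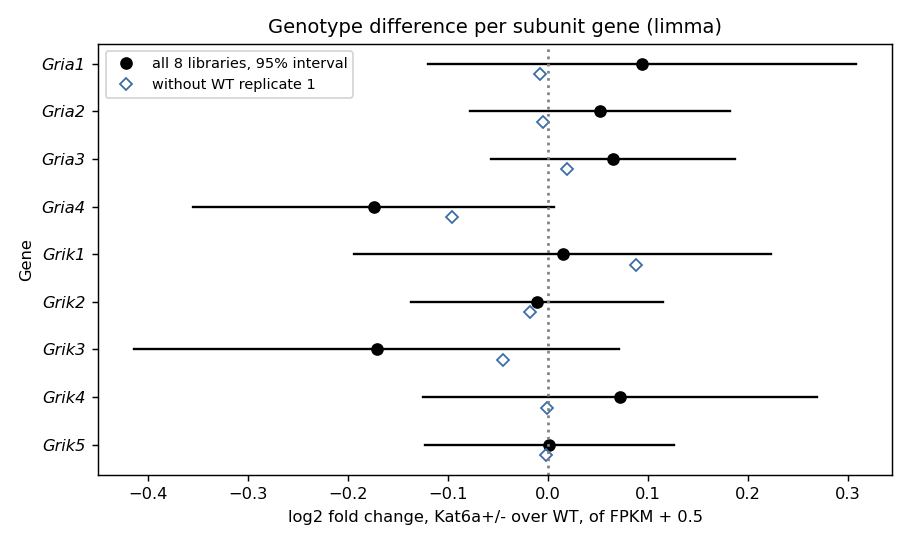
Difference between genotypes per subunit gene as the log2 fold change of FPKM + 0.5, Kat6a+/- over WT, with 95% intervals from limma (filled circles and lines, n = 4 each) and the value without WT replicate 1 (open diamonds). Every interval contains 0, and without WT replicate 1 Gria4 lies at -0.10 and Grik3 at -0.04.

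Among the kainate genes the high-affinity subunit Grik5, which is used throughout the brain, had the most transcript. Its levels were 52.4, 54.9, 47.9 and 56.2 FPKM in the WT libraries, against 52.4, 50.01, 54.2 and 54.9 FPKM in the heterozygous ones, and its means of 52.9 FPKM in both groups gave a log2 fold change of 0.00 ± 0.06 (SE, 95% interval -0.12 to 0.13). Grik4, the other high-affinity subunit and a gene concentrated in CA3 pyramidal cells, measured 9.04, 10.3, 11.0 and 12.4 FPKM in the WT libraries, against 10.2, 11.3, 11.3 and 12.1 FPKM in the heterozygous ones. WT held both its lowest value, in replicate 1, and its highest, in replicate 4. Its log2 fold change of 0.07 ± 0.09 (SE, 95% interval -0.12 to 0.27) was -0.00 without WT replicate 1. The library with the lowest Grik4 also had the lowest summed CA3 markers, as given above. WT replicate 4, with the most Grik4, had a CA3 sum of 86.6 FPKM, near the low end of the other libraries. The part of the CA3 markers in the Grik4 values was not tested. Of 6 CA3 markers other than Grik4, 5 were above 0 in log2 fold change and 0 passed the threshold, and their summed level ran from 73.0 to 92.2 FPKM in WT, while Kat6a+/- ran from 85.5 to 103 FPKM.

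By FPKM with the deposited lengths, the channel-forming kainate subunits were at lower levels than Grik4 and Grik5. Grik3 measured 8.48, 5.70, 5.99 and 5.76 FPKM in the WT libraries, against 5.54, 5.66, 5.53 and 5.79 FPKM in the heterozygous ones. WT replicate 1 stood alone at 149% of the mean of the other 7 libraries, which lay between 5.53 and 5.99 FPKM whatever their genotype. The log2 fold change was -0.17 ± 0.11 (SE, 95% interval -0.41 to 0.07) and -0.04 without that library. Grik2, the principal subunit at mossy fibre synapses, measured 5.17, 5.40, 5.06 and 5.39 FPKM in the WT libraries, against 4.86, 5.67, 5.31 and 5.02 FPKM in the heterozygous ones, and its log2 fold change was -0.01 ± 0.06 (SE, 95% interval -0.14 to 0.11). It was the steadiest member, with a coefficient of variation of 4.94% over the 8 libraries, and one where WT replicate 1 lay within the range of the others. Grik1, mostly a gene of interneurons, measured 2.02, 1.51, 1.74 and 1.45 FPKM in the WT libraries, against 1.77, 1.72, 1.60 and 1.68 FPKM in the heterozygous ones, from 167 to 342 reads per library. Its log2 fold change was 0.02 ± 0.09 (SE, 95% interval -0.19 to 0.22), and 0.09 without WT replicate 1. The coefficient of variation of the members over the 8 libraries had a median of 9.91%, beside 7.42% over the 12291 tested genes that averaged 1 FPKM or more, and was widest in Grik3 (16.4%), Gria4 (11.8%), Grik1 (10.6%) and Gria1 (10.3%). WT replicate 1 is among these 8 libraries. Within Kat6a+/- alone the coefficients of Grik3, Gria4, Grik1 and Gria1 were 2.17%, 4.60%, 4.29% and 7.03%. Within WT they were 20.6%, 12.9%, 15.7% and 13.4%.

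Ordered by mean level per length, Gria1 came first at 214 ± 21.98 FPKM (SD over 8 libraries), followed by Gria2, Grik5, Gria3, Grik4, Gria4, Grik3, Grik2 and Grik1. Neighbours in this order were compared within libraries by an exact two-sided sign-flip permutation test, whose smallest p over 8 libraries is 0.00781. Gria1 lay 3.58-fold above Gria2 in 8 of 8 libraries (exact p = 0.00781, 0.0125 after adjustment over 8 neighbour pairs). Gria2 lay 1.12-fold above Grik5 in 7 of 8 libraries (exact p = 0.0156, adjusted 0.0179) and Grik3 1.13-fold above Grik2 in 7 of 8 (exact p = 0.0156, adjusted 0.0179). The order of Grik3 and Grik2 holds only for the deposited lengths: Grik2 lay above Grik3 by reads, per longest and per shortest coding transcript and per coding sequence (log2 differences of Grik3 to Grik2 from -2.15 to -0.29). Grik4 and Gria4 could not be separated beyond their spread, with Grik4 above in 7 of 8 libraries and Gria4 above in WT replicate 1 (exact p = 0.0859). With the deposited lengths that call rested on WT replicate 1. Without it Grik4 lay above Gria4 by 0.26 on the log2 scale in each of 7 libraries (exact p = 0.0156), and the order of the other neighbours did not change. With all 8 libraries this log2 difference was -0.0040 per longest coding transcript, 0.026 per coding sequence and 0.72 per shortest. The remaining 4 neighbour pairs kept their order in 8 of 8 libraries with the deposited lengths. Of these, Grik5 over Gria3 turned to a log2 difference of -0.39 per shortest coding transcript and -0.035 per coding sequence.

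As proportions of the summed FPKM of its class, Gria1 held 65.8% to 71.2% of the AMPA total over the 8 libraries, Gria2 17.9% to 20.4%, Gria3 7.89% to 9.02% and Gria4 2.68% to 4.77%. Grik5 held 66.8% to 70.6% of the kainate total, Grik4 11.7% to 15.3%, Grik3 7.09% to 11.0%, Grik2 6.32% to 7.63% and Grik1 1.78% to 2.62%. A share within a library does not depend on how libraries are scaled to each other. The Gria2 share was 19.4% ± 0.696 in WT and 19.1% ± 0.856 in Kat6a+/- (SD, n = 4 each; exact permutation p = 0.657). The log2 ratio of Gria1 to Gria2 was 1.83 ± 0.0936 and 1.87 ± 0.0871 (exact permutation p = 0.543). The kainate share of all 9 genes was 20.5% ± 2.02 and 19.5% ± 0.4998 (exact permutation p = 0.543), and the joint share of Grik4 and Grik5 in the kainate total 82.5% ± 2.14 and 83.6% ± 0.818 (exact permutation p = 0.429).

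Across the 12 proportions compared, none passed after Benjamini-Hochberg adjustment over the 12 exact permutation p-values (lowest adjusted p = 0.931). The smallest p was that of the Gria4 share, at 4.77%, 2.89%, 3.30% and 2.91% in WT and 2.88%, 2.91%, 2.88% and 2.68% in Kat6a+/- (exact permutation p = 0.0857). Without WT replicate 1 the Gria4 share difference went from -0.627 to -0.194 percentage points (exact permutation p = 0.171), and that of the joint Grik4 and Grik5 share from 1.09 to 0.140 (exact permutation p = 0.857). The difference in the kainate share of all 9 genes went from -0.937 to 0.0312 percentage points (exact permutation p = 0.971). WT replicate 1 lay outside the range of the other libraries in the shares of all 4 AMPA genes and of Grik1, Grik3 and Grik4. It also had the highest kainate share of all 9 genes, 23.4% against 18.7% to 20.3%, and the lowest log2 ratio of Gria1 to Gria2, 1.69 against 1.79 to 1.99.

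**Figure D3:**
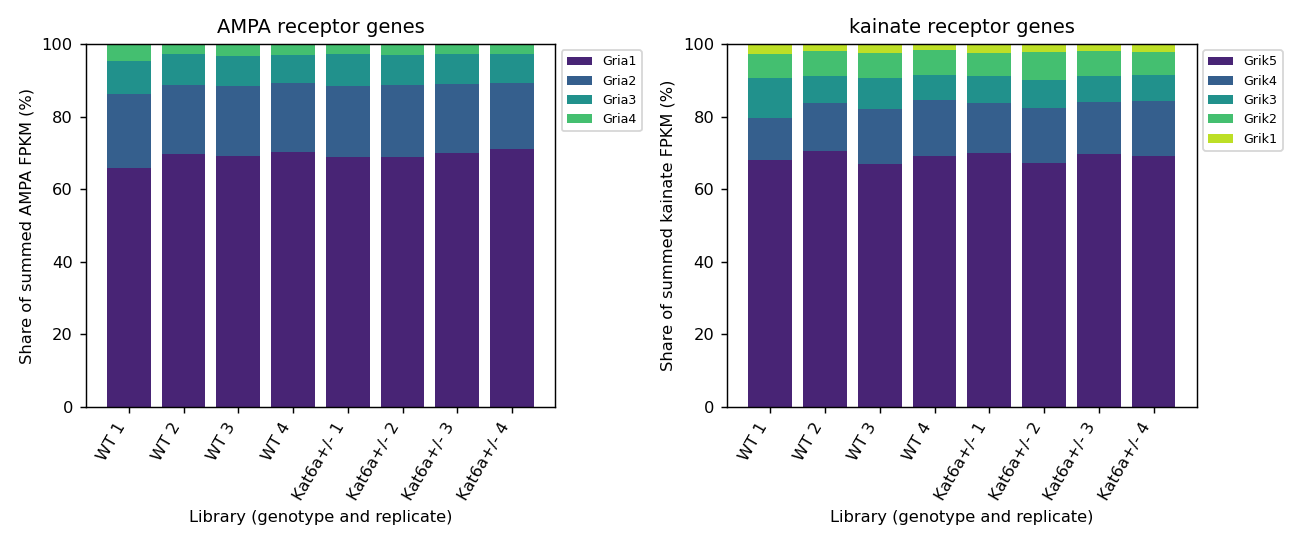
Share of each gene in the summed FPKM of the AMPA class (left) and of the kainate class (right), in percent, 1 bar per library labelled by genotype and replicate. Gria1 and Grik5 take most of their class in all 8 bars, and WT 1 has the widest bands of Gria4 (4.77%) and Grik3 (11.0%).

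The proportions between genes rest on the gene length that the authors divided by. For the 9 members that length equals the union of all annotated exons of GENCODE M21, in which annotated transcripts with retained introns count too. For Gria2 the union is 15548 bases, while its 2 complete coding transcripts have 10371 and 4026 bases. For Gria1 the union is 6043 bases and its complete coding transcripts 5361 to 5546. By read number Gria1 and Gria2 were closer than by FPKM, at 20340 to 35276 and 15315 to 25681 reads per library. Divided by the longest coding transcript, the Gria2 share of the AMPA total was 21.8% to 24.4%. Divided by the shortest it was 37.8% to 41.0%, where Gria1 held 38.7% to 43.8%, and divided by the coding sequence alone it was 35.1% to 38.5%. The deposited values hold no reads per transcript, so which length applies cannot be told from them. In the kainate class the Grik2 share was 6.32% to 7.63% per union length and 19.3% to 22.7% per shortest coding transcript, and the Grik5 share then was 54.1% to 57.9%. Grik2 then passed Grik4, whose mean share was 14.9% beside 20.7% for Grik2, and it did so per coding sequence too (15.5% against 13.8%) and by read number. None of the 12 genotype comparisons passed under any of these lengths, which were added after the data were seen. The Gria4 share separated the groups without overlap per coding sequence (2.64% ± 0.643 in WT, 2.17% ± 0.0617 in Kat6a+/-, exact permutation p = 0.0286, adjusted 0.343 over 12). The gap was narrow, from 2.210% in WT replicate 2 to 2.209% in Kat6a+/- replicate 3, and WT replicate 1 was highest at 3.58%. Shares of reads also separated, with 2.225% in WT replicate 2 and 2.223% in Kat6a+/- replicate 2 as neighbours (exact permutation p = 0.0286, adjusted 0.343 over 12).

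**Figure D4:**
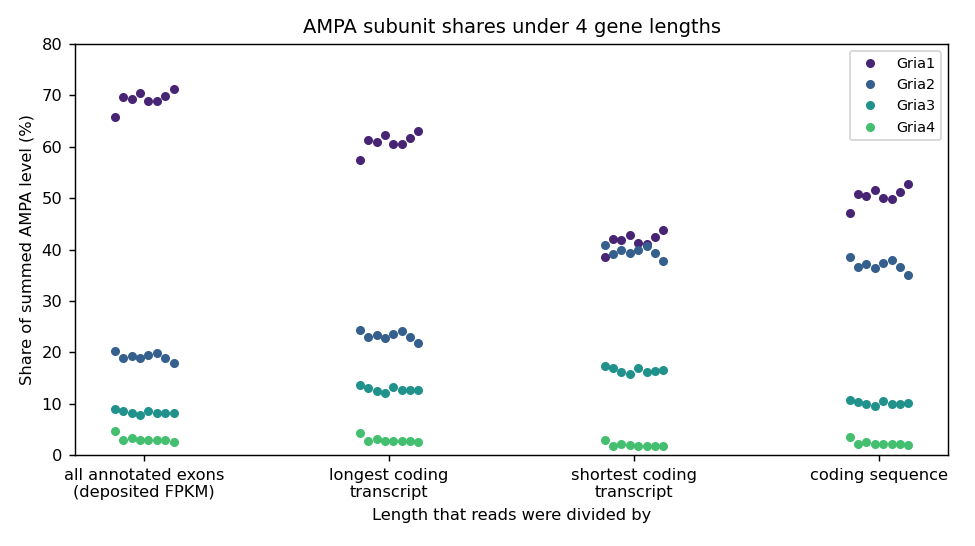
Share of Gria1, Gria2, Gria3 and Gria4 in the AMPA total, in percent, after dividing reads by each of 4 lengths, with 1 point per library from WT replicate 1 (left) to Kat6a+/- replicate 4 (right) in each column of points. The Gria2 share lies at 17.9% to 20.4% with the deposited lengths and at 37.8% to 41.0% with the shortest coding transcripts.

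The partners of these receptors were compared in the same way. Over 6 lists, among them auxiliary subunits, assembly factors, scaffolds and editing enzymes, 47 of 48 genes were tested, 0 passed the threshold in either direction, and 3 (6.38%) had an unadjusted p under 0.05, where 4.41% of all tested genes did and 0% passed after adjustment. Without WT replicate 1 it was 2 of 47 (4.26%), beside 4.31% of all tested genes, and again 0 passed. Of 13 AMPA auxiliary subunits, 7 were above 0 and 6 below, with a median log2 fold change at 0.00. Those with the smallest p were Cacng4, a transmembrane regulator of AMPA receptors, at 7.43 ± 0.244 FPKM in WT, beside 7.99 ± 0.557 FPKM in Kat6a+/-, and Shisa7, at 31.6 ± 3.02 and 33.3 ± 1.56 FPKM (SD, n = 4 each). The log2 fold changes without WT replicate 1 were 0.10 for Cacng4 and 0.02 for Shisa7. Cnih2, the cornichon that escorts hippocampal AMPA receptors, had the most transcript of this list, at 481 FPKM in WT, beside 480 FPKM in Kat6a+/-, and is named for its level.

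Of 11 tested assembly and associated proteins, 6 were above 0 and 5 below, with a median log2 fold change at 0.01. Syndig1, which promotes excitatory synapse formation, measured 11.5, 14.3, 13.6 and 12.3 FPKM in the WT libraries, against 14.7, 14.7, 14.8 and 14.8 FPKM in the heterozygous ones. Olfm3, a secreted olfactomedin found with AMPA receptors, measured 4.09, 3.73, 4.30 and 3.67 FPKM in the WT libraries, against 3.43, 3.55, 3.57 and 3.30 FPKM in the heterozygous ones. Both separated the genotypes without overlap, Syndig1 upward (log2 fold change 0.19 ± 0.06 SE) and Olfm3 downward (-0.16 ± 0.06 SE), each with an exact permutation p of 0.0286 and an adjusted p of 0.9998 in limma. Without WT replicate 1 the log2 fold change of Syndig1 was 0.14 and that of Olfm3 -0.15. Groups without overlap occurred in 2.62% of all tested genes, in 1.09% upward and 1.53% downward.

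Of 14 scaffolds and clustering factors, 8 were above 0 and 6 below, with a median log2 fold change at 0.02. Nptx2, an activity-induced pentraxin that clusters AMPA receptors, measured 13.8 ± 1.91 FPKM in WT, beside 16.04 ± 1.28 FPKM in Kat6a+/- with overlapping groups (unadjusted p = 0.0480, adjusted p = 0.9998 in limma), and Dlg3, a scaffold of the PSD-95 family, 46.2 ± 2.52 and 48.2 ± 3.47 FPKM. Without WT replicate 1, the lowest library for Nptx2, its log2 fold change went from 0.22 to 0.12 and that of Dlg3 from 0.06 to 0.02. The 4 kainate partners, Neto1, Neto2, C1ql2 and C1ql3, were all above 0 at a median of 0.06. Without WT replicate 1, Neto1 lay at -0.03, Neto2 at -0.0053, C1ql2 at 0.08 and C1ql3 at 0.06. C1ql3, a synaptic organiser of mossy fibres, had the smallest p of these at 18.5 ± 0.849 and 19.2 ± 1.52 FPKM, followed by Neto2, an auxiliary subunit, at 10.04 ± 1.22 and 10.6 ± 1.09 FPKM. Among the editing enzymes, Adarb2, a brain relative without known editing activity, measured 1.94 ± 0.197 and 2.20 ± 0.150 FPKM, and Adar 18.4 ± 1.01 and 17.6 ± 1.24 FPKM. The unadjusted p of Adarb2 in limma was 0.0836 with all 8 libraries, where the groups overlapped (adjusted p = 0.9998). Without WT replicate 1 it was 0.0359 (adjusted p = 0.9999). Adarb1, the enzyme of the Gria2 Q/R codon, measured 19.6 ± 0.611 and 19.3 ± 1.66 FPKM.

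The gene whose pattern over the 8 libraries was most like that of a member was sought among 11326 other genes that averaged 1 FPKM or more. Predicted gene models, genes with clone names and repeated symbols were left out of this search. The closest to Gria1 was Thsd4 (Pearson r = 0.991, Spearman rho = 0.952) and the closest to Gria4 was Pcsk1 (r = 0.980, rho = 1). The closest to Grik4 was Surf4 (r = 0.987, rho = 0.976). Those closest to Gria2, Gria3, Grik1, Grik2, Grik3 and Grik5 were Secisbp2l, Atp2b1, Chml, Cop1, Selenoh and Tmem121b, with r from 0.958 (Chml) to 0.984 (Atp2b1). These are the highest of many correlations over 8 libraries and are a description with no test. Without the 2 libraries farthest from the median of the member, one of which was WT replicate 1 for 7 of the 9 members, r was 0.931 for Thsd4, 0.968 for Pcsk1, 0.985 for Surf4 and 0.732 for Secisbp2l.

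Reads of other genes within the members' loci were few. Over the 8 libraries, 13 reads were assigned to a microRNA gene inside Gria4, 40 to 6 noncoding genes inside Grik2 and 1 to a pseudogene inside Grik3, all on the member's strand, and the other 6 members contained no other gene with a read.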

How the data were processed

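Hippocampal RNA from 4 WT and 4 Kat6a+/- libraries was sequenced. The submitters' processing notes name GRCm38, mm10, HTSeq, DESeq2 and STAR 2.5 without roles. No annotation release or strand setting is stated. The authors deposited FPKM for 54532 genes. For 605 genes the authors also deposited raw read counts, a signal (count divided by 1 size factor per library), log2 fold changes and p-values. FPKM times gene length and 1 constant per library, taken from the deposited counts, gave whole reads for 100% of values (tolerance 0.01).

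Genes averaging 0.5 FPKM or more (14159) were compared on log2(FPKM + 0.5) by limma-trend (limma 3.58.1, R 4.3.3). The Benjamini-Hochberg threshold was 0.05. There were also exact permutation tests for single values. edgeR 4.0.16, DESeq2 1.42.0 and limma-voom on the recovered reads were alternatives, beside other pseudocounts, filters, scaling, a replicate block and leaving out each library. limma-trend, edgeR, DESeq2 and limma-voom were tested on simulated reads with planted log2 changes of 1 and 2, larger than those of any member. The exact tests and the other settings were not. Fold changes on this scale understate changes of low genes. The members, lists and tests were chosen with earlier results of these data known. Named genes were Kat6a, the 9 members, called genes of each list or else the 2 with the smallest unadjusted p, and the most alike gene per member; genes named beyond these were chosen after their values were seen. Genes of 1 list are counted in the total over lists and not reported here.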

Additional observations from a re-analysis of the deposited data

Results flagged for a closer look

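In 42 groups of 4 libraries (9 levels and 12 proportions in both genotypes), 4 values lay farther from their group than a Dixon test at the 95% level allows, and chance gives about 1 in 20. Gria2 was lowest in WT replicate 1, at 51.5 FPKM, and Grik3 was highest there, at 8.48 FPKM. Within Kat6a+/- the Gria3 share of the AMPA total was highest in replicate 1, at 8.67%, and the Gria4 share was lowest in replicate 4, at 2.68%.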

How the results depend on the processing

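No member passed the threshold under any of 17 alternatives, and of 153 member fold changes 138 kept their direction. Over all genes, 5 passed with DESeq2 on recovered reads; leaving out 1 library gave 0 to 1, with 1 without WT replicate 3 and without Kat6a+/- replicate 3. With each library left out in turn, these differences (Kat6a+/- minus WT) changed sign. On the log2 scale, Gria1 ranged from -0.0076 to 0.14, Gria2 from -0.0042 to 0.078, Grik1 from -0.037 to 0.088, Grik2 from -0.049 to 0.019, Grik4 from -0.00053 to 0.14, Grik5 from -0.044 to 0.032, and the ratio of Gria1 to Gria2 from -0.0034 to 0.069. In percentage points, the shares ranged from -0.0124 to 1.495 (Gria1), -0.561 to 0.0982 (Gria2), -0.224 to 0.153 (Gria3), -0.119 to 0.163 (Grik1), -0.285 to 0.151 (Grik2), -0.255 to 0.9998 (Grik5) and -1.53 to 0.0312 (kainate share of all 9).

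Rescaling to a common FPKM sum moved the median of all genes to 0.01 and Grik2 to 0.0018; the Grik2 share difference was 0.0487 over reads and 0.0616 per coding sequence. The order of levels depended on length by construction. As log2 differences, Grik5 over Gria3 was -0.39 per shortest coding transcript and -0.035 per coding sequence. Grik4 over Gria4 was -0.0040 per longest transcript and 0.72 per shortest. Grik3 over Grik2 was -0.36 over reads, -0.29 per longest transcript, -2.15 per shortest and -0.38 per coding sequence. Gria1 over Gria2 was 0.07 per shortest. Grik4 over Gria4 was 0.26 without WT replicate 1. The cause of the other changes was not tested.

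The deviations of same-numbered libraries of the genotypes had correlations of 0.17, -0.07, 0.07 and 0.01. Those of differently numbered libraries ran from -0.13 to 0.09, so the pair of replicates 1, at 0.17, was highest. So few values cannot decide whether same-numbered libraries shared more than a number, such as a batch, and this was not tested. With a replicate block 0 members and 0 genes passed, and Gria4 was -0.17 (adjusted p = 0.887, limma). Exact tests of 3 libraries against 4 cannot go below 0.0571, nor sign flips of 4 pairs below 0.125. Counting error is largest for Grik1, at 167 to 342 reads per library.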
